A study of Mus musculus with 11 samples.

Results

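Imprinted genes were examined in embryonic stem cells (mESCs) and embryonic fibroblasts (MEFs) of the mouse, each of 2 genotypes, WT and Atxn7l3-/-, profiled by RNA-seq of polyadenylated RNA. The set was fixed by name: 40 gene names, of which 39 had a row in the mESC table (31518 genes in all) and 39 in the MEF table (29450 genes in all). The missing name in each was Snurf, an upstream reading frame of the Snrpn transcript that overlaps Snrpn on the same strand. Atxn7l3 encodes the adaptor of the deubiquitylating module that removes ubiquitin from histone H2B in the SAGA co-activator and in related complexes.

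Genomic imprinting is the expression of a gene from only the maternal or only the paternal chromosome. The parental copies carry different DNA methylation at control regions, set in the germ line and kept in the embryo by DNMT1, by the zinc finger proteins ZFP57 and ZFP445 and by their partner TRIM28. Many imprinted genes lie in clusters that share a control region, such as Igf2 with H19, and many of them govern fetal and placental growth. Cultured mESCs are known for variable imprints. The counts do not tell the parental alleles apart, so every value below is the sum of both chromosomes.

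Libraries came from 2 WT mESC lines (Atxn7l3+/+), 3 Atxn7l3-/- mESC lines, 3 WT MEF cultures and 3 MEF cultures labelled Atxn7l3-/-, all on a DBA/2 x C57BL/6 background. The mESCs were started on feeder cells and then grown without feeders with LIF, serum and inhibitors of MEK and GSK3, and the MEFs were made from embryos at E10.5 whose head and gut had been removed. The lines came from separate blastocysts or embryos, so a genotype effect is measured over few lines. Totals ran from 34515342 to 49602605 counts per library, and 3 counts in a library correspond to 0.0605 to 0.0869 CPM (counts scaled to a fixed library total). CPM values below are scaled by edgeR's TMM factors within each cell type.

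The targeted gene checked the labels. In mESCs, Atxn7l3 was at 222 and 223 CPM in the WT libraries and at 3.91, 1.79 and 0.976 CPM in the Atxn7l3-/- libraries. In MEFs it was at 79.7, 104 and 92.9 CPM in WT and at 49.2, 49.5 and 67.3 CPM in the libraries labelled Atxn7l3-/-, 59.9% of the WT mean (log2 fold change −0.74 ± 0.21 SE, edgeR adjusted p = 0.0715), so the counts show a much smaller loss there and did not pass the test. Which part of the transcript these reads cover is not known from counts per gene. The mESC libraries held the pluripotency markers (summed 3614 to 4395 CPM over both genotypes), and the MEF libraries held the fibroblast markers (summed 6665 to 41481 CPM in WT and 16145 to 22575 CPM in the others).

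Some libraries stood apart. In the MEFs labelled Atxn7l3-/-, 4 of 5 markers of mesothelium (Wt1, Upk3b, Msln and Upk1b) rose, and their list summed to 4091 to 5768 CPM against 16.3 to 38.5 CPM in WT MEFs. No marker of that list was at 0 in the mean of a group, and Krt19 did not pass (8.89 CPM in WT, 6.88 CPM in the others). Xist, the RNA of the inactive X chromosome, was at 300.4 CPM in WT MEF library 3 and below 1 CPM in the other 5 MEF libraries. The Y-linked Ddx3y was at 3.46 and 0.882 CPM in Atxn7l3-/- mESC libraries 1 and 2 against 90.6 to 225 CPM in the other mESC libraries. Fewer cells of a type and less RNA per cell cannot be told apart in bulk RNA.

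Promoter sequence was available from RefSeq (build GRCm38.p6) for 32 of the 40 names. The hexamer TGCCGC, which ZFP57 binds when its CpG is methylated, was searched on both strands in the 250 bases before each start. It was present in 8 of 51 windows of the set (15.7%), from 7 genes, and in 8.68% of all 32851 windows. The hexamer holds a CpG, and the windows of the set had a median of 8 CpG dinucleotides against 6 over all windows. Some windows of the set overlap, such as those of Mest that hold the hexamer. The windows are shown for the genes that passed a genotype test below, as far as they hold no annotated untranslated region. Of several windows of a gene, the one with the most CpG dinucleotides is shown. Peg10 had no entry, and Dio3 is not shown because most of its window is annotated as untranslated. Capitals mark the hexamer or its reverse complement GCGGCA, and letters run 5′ to 3′ along the gene's strand. The Mest window (chr6:30737800-30738049, plus strand) held 2 matches among 14 CpG dinucleotides, and the stretches of Nnat (chr2:157559828-157560077, plus strand), Zim1 (chr7:6696451-6696682, minus strand) and Asb4 (chr6:5390160-5390409, plus strand) held none, although the whole window of Zim1, which runs on into the part left out, held 1.
Mest: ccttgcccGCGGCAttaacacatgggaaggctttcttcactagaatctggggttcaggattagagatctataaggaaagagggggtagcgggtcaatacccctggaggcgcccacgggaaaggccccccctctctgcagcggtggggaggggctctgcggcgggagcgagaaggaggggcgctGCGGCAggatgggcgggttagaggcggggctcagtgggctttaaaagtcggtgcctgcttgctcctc
Nnat: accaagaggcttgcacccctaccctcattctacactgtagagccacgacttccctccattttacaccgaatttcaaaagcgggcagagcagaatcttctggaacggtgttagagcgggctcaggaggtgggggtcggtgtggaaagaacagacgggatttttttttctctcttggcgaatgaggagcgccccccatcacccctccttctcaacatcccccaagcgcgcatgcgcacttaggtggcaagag
Zim1: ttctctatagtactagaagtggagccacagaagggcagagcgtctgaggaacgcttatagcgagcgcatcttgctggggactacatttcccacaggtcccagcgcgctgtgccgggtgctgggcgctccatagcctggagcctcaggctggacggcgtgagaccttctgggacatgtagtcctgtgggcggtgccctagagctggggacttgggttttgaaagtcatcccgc
Asb4: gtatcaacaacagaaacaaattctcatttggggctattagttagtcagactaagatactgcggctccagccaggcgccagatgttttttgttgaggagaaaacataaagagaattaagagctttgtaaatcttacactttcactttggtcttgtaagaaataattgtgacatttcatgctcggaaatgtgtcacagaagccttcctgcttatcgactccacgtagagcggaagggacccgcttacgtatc

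The first comparison asked how the imprinted genes differ between Atxn7l3-/- and WT mESCs. Of the 39 genes listed, 38 passed the filter on low counts and entered the test over 17800 genes. Called means an adjusted p of 0.05 or less in edgeR's quasi-likelihood test. There, 3 imprinted genes fell (Dio3, Asb4 and Mest) and 0 rose, where 3.88% of all genes tested fell and 3.08% rose. At an unadjusted p under 0.05, 10 were lower (14.8% of all genes tested) and 5 were higher (15.0%), and DESeq2 called 7 lower (9.48%) and 4 higher (9.77%). The median log2 fold change of the 38 genes was −0.37, against 0.04 over all genes tested, and 24 of the 38 were below 0. Every Atxn7l3-/- library lay below every WT library for 15 of the 38 genes (25.1% of all genes tested) and above for 5 (24.6% of all genes tested).

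Dio3 encodes the deiodinase that inactivates thyroid hormone and is expressed from the paternal chromosome at the far end of the Dlk1-Dio3 cluster (chromosome 12, 110279068 to 110281097, plus strand, mm10). In WT mESCs it was at 20.3 and 20.2 CPM, and in Atxn7l3-/- mESCs at 0.662, 0.262 and 1.00 CPM. The groups were far apart, with close agreement between the WT lines, and the log2 fold change was −4.98 ± 0.55 (SE, adjusted p = 0.0211). Other genes of the cluster did not pass the test. Dlk1, a paternally expressed transmembrane ligand, was at 3.39 and 2.01 CPM in WT and at 1.56, 0.715 and 2.06 CPM in Atxn7l3-/- mESCs (adjusted p = 0.324), and the groups overlapped. The noncoding RNAs of the maternal chromosome, Meg3, Rian and Mirg, were not called. Rian averaged 143 CPM in each genotype, but was at 119 and 167 CPM in WT and at 88.3, 78.9 and 262 CPM in Atxn7l3-/- mESCs. Meg3 was at 78.3 and 109 CPM in WT and at 109, 68.4 and 332 CPM in Atxn7l3-/- mESCs (log2 fold change 0.86). Library 3 was the highest Atxn7l3-/- library for both. Mirg had a log2 fold change of −1.10. Rtl1 was at 0 to 1 count in every mESC library and was not tested.

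Mest, a paternally expressed membrane protein of the hydrolase family (chromosome 6, 30723547 to 30748465, plus strand), was at 74.6 and 86.3 CPM in WT mESCs and at 22.9, 23.9 and 20.3 CPM in Atxn7l3-/- mESCs. Both groups were tight and the log2 fold change was −1.85 ± 0.20 (SE, adjusted p = 0.0211). Asb4, a maternally expressed ankyrin repeat protein, had 23 and 27 counts in WT mESCs and 2, 2 and 0 counts in Atxn7l3-/- mESCs. Scaled by library totals, its pooled count was 6.29% of WT, with a 95% exact interval of 1.65% to 17.1% that covers counting error only (edgeR adjusted p = 0.0377).

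Asb4 lies in the cluster of Peg10, a paternally expressed gene derived from a retrotransposon that is needed for the placenta. Peg10 had 2112 and 751 CPM in WT mESCs and 310, 255 and 52.3 CPM in Atxn7l3-/- mESCs. All Atxn7l3-/- libraries lay below WT, but the libraries of each group were spread widely, and the log2 fold change of −2.80 ± 0.70 (SE) had an adjusted p of 0.0557. Sgce, another gene of the cluster, had a log2 fold change of −1.21 (adjusted p = 0.106).

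H19, a noncoding RNA of the maternal chromosome, and Igf2, the paternally expressed growth factor next to it, both sat lower without passing the test. H19 was at 1089 and 685 CPM in WT mESCs and at 355, 126 and 10.5 CPM in Atxn7l3-/- mESCs. The Atxn7l3-/- libraries did not reach the WT libraries but differed 33.8 times among themselves, and the log2 fold change of −2.44 ± 1.03 (SE) had an adjusted p of 0.162. Igf2 was at 19.5 and 15.6 CPM in WT and at 6.07, 9.15 and 5.49 CPM in Atxn7l3-/- mESCs, without overlap (log2 fold change −1.34 ± 0.35, adjusted p = 0.0592).

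Igf2r and Grb10, which restrain growth, sat on the other side. Igf2r, the maternally expressed receptor that clears IGF2, was at 249 and 232 CPM in WT and at 354, 344 and 379 CPM in Atxn7l3-/- mESCs (log2 fold change 0.58 ± 0.18, adjusted p = 0.0844). Grb10, an adaptor that restrains insulin receptor signalling, was at 127 and 120 CPM in WT and at 199, 242 and 175 CPM in Atxn7l3-/- mESCs (log2 fold change 0.73 ± 0.21, adjusted p = 0.0706). In both, the groups did not overlap and the test was not passed. Plagl1, a zinc finger transcription factor, was at 108 and 224 CPM in WT and at 437, 203 and 425 CPM in Atxn7l3-/- mESCs, with overlap (adjusted p = 0.134). Cdkn1c, the cell cycle inhibitor p57, stayed low at 3.27 and 2.90 CPM in WT and at 1.77, 1.00 and 3.09 CPM in Atxn7l3-/- mESCs (adjusted p = 0.461).

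Zdbf2, a paternally expressed gene singled out here after its values were seen, was at 187 and 200 CPM in WT and at 19, 93.1 and 24.8 CPM in Atxn7l3-/- mESCs, without overlap (log2 fold change −2.09, adjusted p = 0.0757). The other genes described by library differed less. Gnas, the stimulatory G protein subunit, was at 232 and 231 CPM in WT and at 281, 236 and 311 CPM in Atxn7l3-/- mESCs (adjusted p = 0.413). Peg13, a noncoding RNA, was at 12.4 and 7.47 CPM in WT and at 4.12, 7.32 and 4.56 CPM in Atxn7l3-/- mESCs (adjusted p = 0.198). Neither gene had overlapping groups, and neither passed. Zim1, a zinc finger gene of the Peg3 cluster, was at 3.18 and 2.40 CPM in WT and at 2.62, 5.48 and 6.28 CPM in Atxn7l3-/- mESCs. Nnat, a small membrane protein, was at 1.57 and 4.05 CPM in WT and at 0.391, 0.477 and 2.11 CPM in Atxn7l3-/- mESCs. Ndn, necdin, ran from 5.27 to 10.6 CPM in WT and from 2.80 to 15.8 CPM in Atxn7l3-/- mESCs. These overlapped between genotypes. Nap1l4, a histone chaperone, was nearly level at 184 and 194 CPM in WT and at 198, 162 and 193 CPM in Atxn7l3-/- mESCs (log2 fold change −0.03 ± 0.18).

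The other 21 imprinted genes tested in mESCs had log2 fold changes from −2.09 (Zdbf2) to 1.34 (Kcnq1ot1, the antisense RNA of the Kcnq1 cluster), and none was called. Among them the Atxn7l3-/- libraries lay below WT without overlap for Mirg, Sgce, Phlda2, Slc22a18, Magel2, Ube3a, Zdbf2 and Zrsr1, and above WT for Usp29 and Kcnq1ot1. The groups overlapped for Airn, Meg3, Rian, Peg3, Osbpl5, Mkrn3, Peg12, Snrpn, Impact, Slc38a4 and Mcts2.

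The mESC calls changed when libraries were left out. Without either WT library, or without Atxn7l3-/- library 1, edgeR called 0 imprinted genes, with 8, 8 and 14 at an unadjusted p under 0.05. The omission of a WT library leaves 1 in that group. Over all alternatives run, the log2 fold change ran from −5.55 to −4.33 for Dio3, from −1.98 to −1.74 for Mest and from −7.57 to −3.30 for Asb4. Without Atxn7l3-/- library 2 it called 6 and without library 3 it called 8, all lower. With Atxn7l3-/- libraries 1 and 2, those with few Y-linked counts, both left out, a choice made after seeing the data, 14 genes were called, but 1 Atxn7l3-/- library then remained and the spread came from the WT libraries alone. Of the markers of other cells, 2 of 7 fibroblast genes tested rose in Atxn7l3-/- mESCs (3.08% of all genes tested). That list summed to 318 to 438 CPM against 21.3 and 105 CPM in WT. Among endoderm and neural markers, 1 of 5 and 1 of 4 tested fell (3.88% of all genes tested). No macrophage, endothelial, mesothelial, skeletal muscle or erythroid marker was called. The part of sex chromosomes and of fibroblast markers in these differences was not tested.

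**Figure D1:**
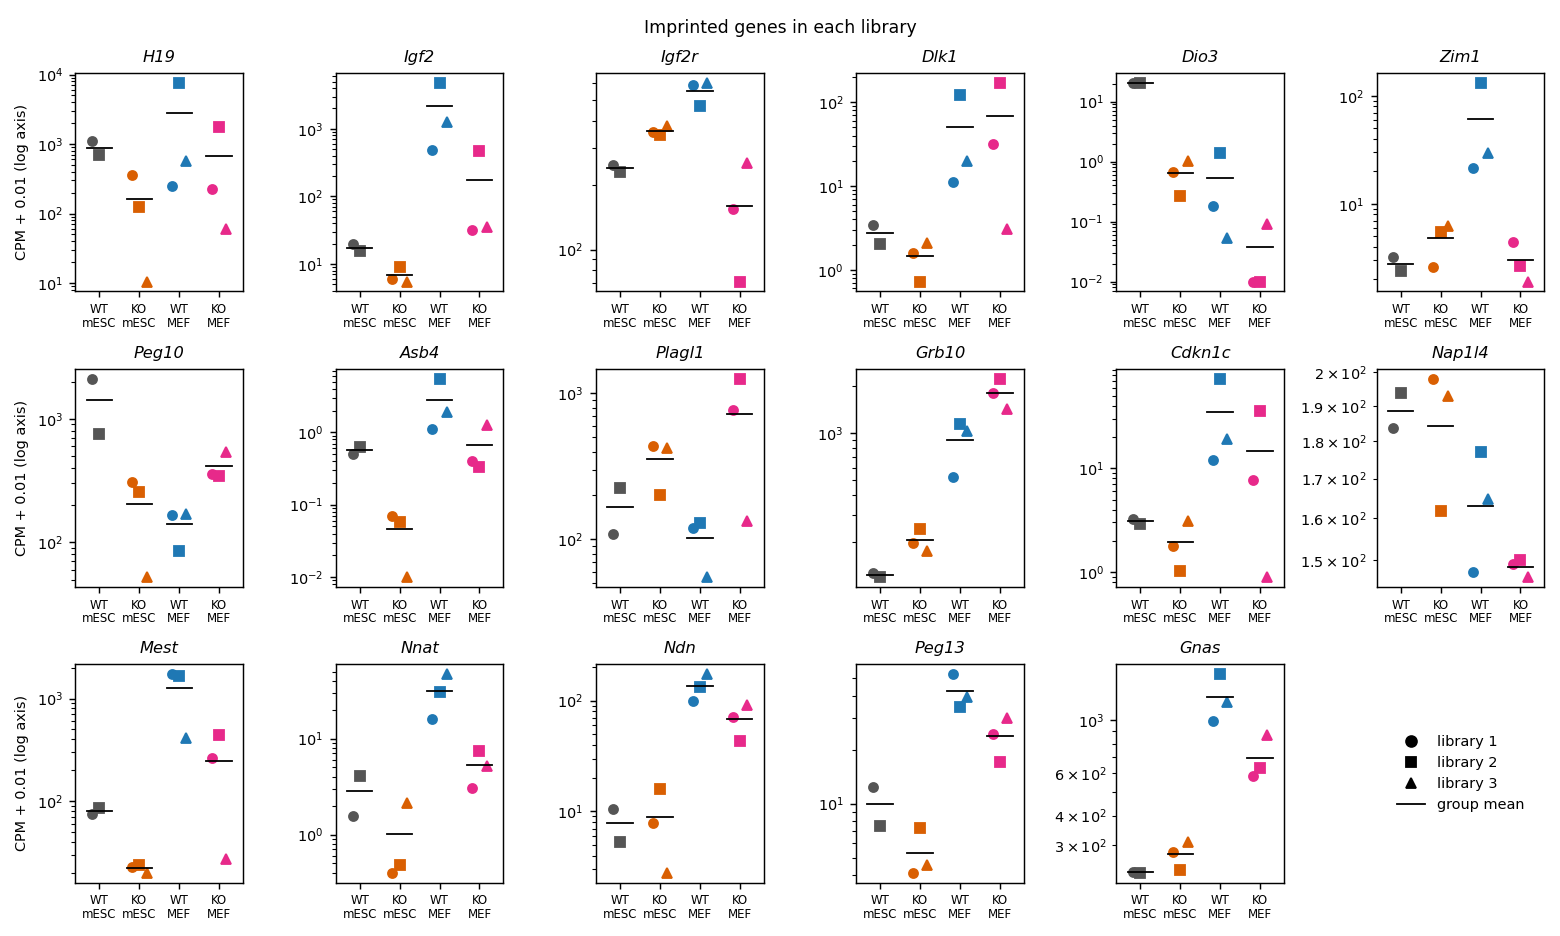
TMM-scaled CPM plus 0.01 of 17 imprinted genes on log axes, with 1 point per library (the shape gives the library number), a line at each group mean, and KO for Atxn7l3-/-. Dio3 and Mest separate cleanly in mESCs, whereas H19 spreads from 59.2 to 7521 CPM over the MEF libraries.

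The same question was asked in MEFs, where 35 of the 39 listed genes passed the filter and 15958 genes were tested. Peg10 rose, and Zim1 and Nnat fell, in the MEFs labelled Atxn7l3-/-, where 5.01% of all genes tested rose and 4.39% fell. At an unadjusted p under 0.05, 4 were higher (14.6% of all genes tested) and 11 lower (17.8%), and DESeq2 called 3 higher (10.8%) and 7 lower (13.9%). The median log2 fold change of the 35 genes was −0.64 against −0.06 over all genes tested, and 24 of the 35 were below 0. Every library labelled Atxn7l3-/- lay below every WT library for 10 genes (19.8% of all genes tested) and above for 5 (20.0% of all genes tested). Because libraries with the same number deviated together in MEFs, the fit with the number as a block (the replicate block) is given beside the calls that it changes. That likeness was seen in these same data, and the cultures came from separate embryos. The block is therefore an alternative and not a known pairing. With the block, 2 genes rose (5.50% of all genes tested) and 6 fell (8.49% of all genes tested).

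Zim1 (chromosome 7, 6671269 to 6696450, minus strand) was at 21.4, 131 and 29.6 CPM in WT MEFs and at 4.45, 2.65 and 1.90 CPM in the others. Its lowest WT library was well above its highest library labelled Atxn7l3-/-, and the log2 fold change was −4.34 ± 0.82 (SE, adjusted p = 0.0298). In the same cluster, Peg3 and Usp29 did not pass, with log2 fold changes of −0.39 and 0.23 (adjusted p = 0.411 and 0.773). Nnat (chromosome 2, 157560078 to 157562522, plus strand), the gene of neuronatin, was at 16.0, 30.9 and 46.9 CPM in WT and at 3.07, 7.46 and 5.19 CPM in the others, with no overlap (log2 fold change −2.58 ± 0.51, adjusted p = 0.0333).

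Peg10 (chromosome 6, 4747306 to 4760517, plus strand) was at 168, 85.1 and 169 CPM in WT MEFs and at 355, 344 and 535 CPM in the MEFs labelled Atxn7l3-/-. All 3 were above all WT libraries and the log2 fold change was 1.55 ± 0.35 (SE, adjusted p = 0.0428). Sgce and Asb4, its neighbours, had log2 fold changes of −0.36 and −2.12 (adjusted p = 0.319 and 0.135). Asb4 was at 1.09, 5.49 and 1.90 CPM in WT and at 0.392, 0.319 and 1.24 CPM in the others, and the groups overlapped.

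Igf2, Igf2r and Mest were lower in each pair of same-numbered libraries, and were called by edgeR with the replicate block but not in the fit without it. DESeq2 also called all of them lower. Igf2 was at 481, 4731 and 1271 CPM in WT MEFs and at 32, 464 and 34.8 CPM in the MEFs labelled Atxn7l3-/-. The WT values spanned 9.85 times, and each library labelled Atxn7l3-/- was at 6.66%, 9.81% and 2.74% of the WT library of the same number. The log2 fold change was −3.61 ± 1.37 (SE, adjusted p = 0.126), and with the block −4.14 (adjusted p = 0.0170; 0.00840 to 0.267 over the alternatives). Igf2r was at 588, 469 and 601 CPM in WT and at 155, 70.9 and 255 CPM in the others, without overlap (log2 fold change −1.78 ± 0.46, adjusted p = 0.0565, and 0.0319 with the block; 0.00230 to 0.153 over the alternatives). Mest was at 1722, 1644 and 414 CPM in WT and at 265, 440 and 27.5 CPM in the others. Library 3 was the lowest of each group, the groups overlapped, and the adjusted p was 0.151 without and 0.0269 with the block (0.0269 to 0.280 over the alternatives). Slc38a4, an amino acid transporter named after its values were seen, was the sixth gene lower with the block, at 30.8%, 22.2% and 50.9% of the WT library of the same number.

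Plagl1 was higher in each pair, and was likewise called by edgeR with the block but not in the fit without it, and by DESeq2. It was at 120, 129 and 55.2 CPM in WT MEFs and at 774, 1262 and 133 CPM in the MEFs labelled Atxn7l3-/-. The groups only just missed overlapping, since the lowest of the latter, library 3, was close to the highest WT library (log2 fold change 2.83 ± 0.79, adjusted p = 0.0679, and 0.0346 with the block; 0.00147 to 0.183 over the alternatives). Grb10 was at 521, 1148 and 1031 CPM in WT and at 1803, 2221 and 1413 CPM in the others, without overlap (log2 fold change 1.01 ± 0.38, adjusted p = 0.125).

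H19, Dlk1 and Cdkn1c varied widely between the libraries of each genotype. H19 was at 251, 7521 and 573 CPM in WT MEFs and at 223, 1732 and 59.2 CPM in the others, so that the libraries of 1 group differed 30.0 and 29.3 times (log2 fold change −2.05 ± 1.58, adjusted p = 0.395). Dlk1 was at 11.1, 121 and 19.8 CPM in WT and at 31.4, 169 and 3.05 CPM in the others (log2 fold change 0.41 ± 1.37, adjusted p = 0.852). Cdkn1c was at 12, 73.8 and 19.2 CPM in WT and at 7.71, 35.6 and 0.879 CPM in the others (log2 fold change −1.25 ± 1.21, adjusted p = 0.499). In all of them library 2 was the highest of both genotypes. Within pairs of the same number, H19 was lower each time (89.1%, 23.0% and 10.3% of WT), as was Cdkn1c (64.3%, 48.3% and 4.59%), while Dlk1 was higher in the first 2 pairs and lower in pair 3, and none of them was called with the block. Without WT library 2 the log2 fold change of H19 was 0.72, and without WT library 1, without library 2 labelled Atxn7l3-/-, or with the block, that of Dlk1 was −0.06, −1.55 and −0.11, none of which passed.

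Among the remaining genes described by library, Gnas was at 990, 1559 and 1195 CPM in WT MEFs and at 587, 635 and 869 CPM in the others (adjusted p = 0.110). Peg13 was at 52.5, 34.6 and 39.3 CPM in WT and at 24.6, 17.1 and 29.9 CPM in the others (adjusted p = 0.105). Ndn was at 99.8, 133 and 173 CPM in WT and at 71.2, 43.4 and 91.3 CPM in the others (adjusted p = 0.103). In these the groups did not overlap but the test was not passed. Nap1l4 was again nearly level, from 147 to 177 CPM in WT and from 146 to 150 CPM in the others. Dio3 was barely present, with 9, 49 and 2 counts in WT and 0, 0 and 3 in the others, and like Magel2, Phlda2 and Rtl1 it was not tested.

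The other 19 imprinted genes tested in MEFs had log2 fold changes from −1.41 (Slc22a18) to 1.27 (Rian), and none was called without the block. The libraries labelled Atxn7l3-/- lay below WT without overlap for Osbpl5, Peg12 and Mcts2, and above WT for Rian and Impact. The groups overlapped for Airn, Meg3, Mirg, Peg3, Usp29, Sgce, Kcnq1ot1, Slc22a18, Mkrn3, Snrpn, Ube3a, Zdbf2, Slc38a4 and Zrsr1.

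The MEF calls changed with the libraries as well. Without WT library 3, the library with Xist, or without library 1 or 2 labelled Atxn7l3-/-, edgeR called 0 imprinted genes, with 9, 7 and 10 at an unadjusted p under 0.05. Without WT library 2 it called Zim1 alone. Without library 3 labelled Atxn7l3-/- it called 3, which were Plagl1, Slc38a4 and Igf2r in place of Zim1, Nnat and Peg10. Over all 15 alternatives run, the log2 fold change ran from −4.74 to −3.06 for Zim1 (called under 11), from −2.91 to −1.59 for Nnat (called under 8) and from 1.31 to 1.73 for Peg10 (called under 6). Some markers of other cells ran with the genotype label, while none of the 6 macrophage, 5 endothelial and 2 skeletal muscle markers tested was called. The macrophage list still ran from 485 to 952 CPM in WT and from 760 to 5282 CPM in the others. For the endothelial list the sums were 5.69 to 70.7 CPM in WT and 3.05 to 19.1 CPM in the others. For skeletal muscle they were 12.5 to 27.4 CPM and 10.0 to 15.2 CPM, and all of these lists overlapped. Beside the mesothelial rise, 2 of 3 neural markers tested fell (Sox10 and Stmn2), with that list at 52.8 to 199 CPM in WT and 0.593 to 30.5 CPM in the others. Of 6 endoderm markers tested Gata4 and Gata6 rose and Sox7 fell. That list was at 10.1 to 322 CPM in WT and 215 to 437 CPM in the others, with overlap. The part of such markers in the values of the imprinted genes, those of Nnat included, was not tested.

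**Figure D2:**
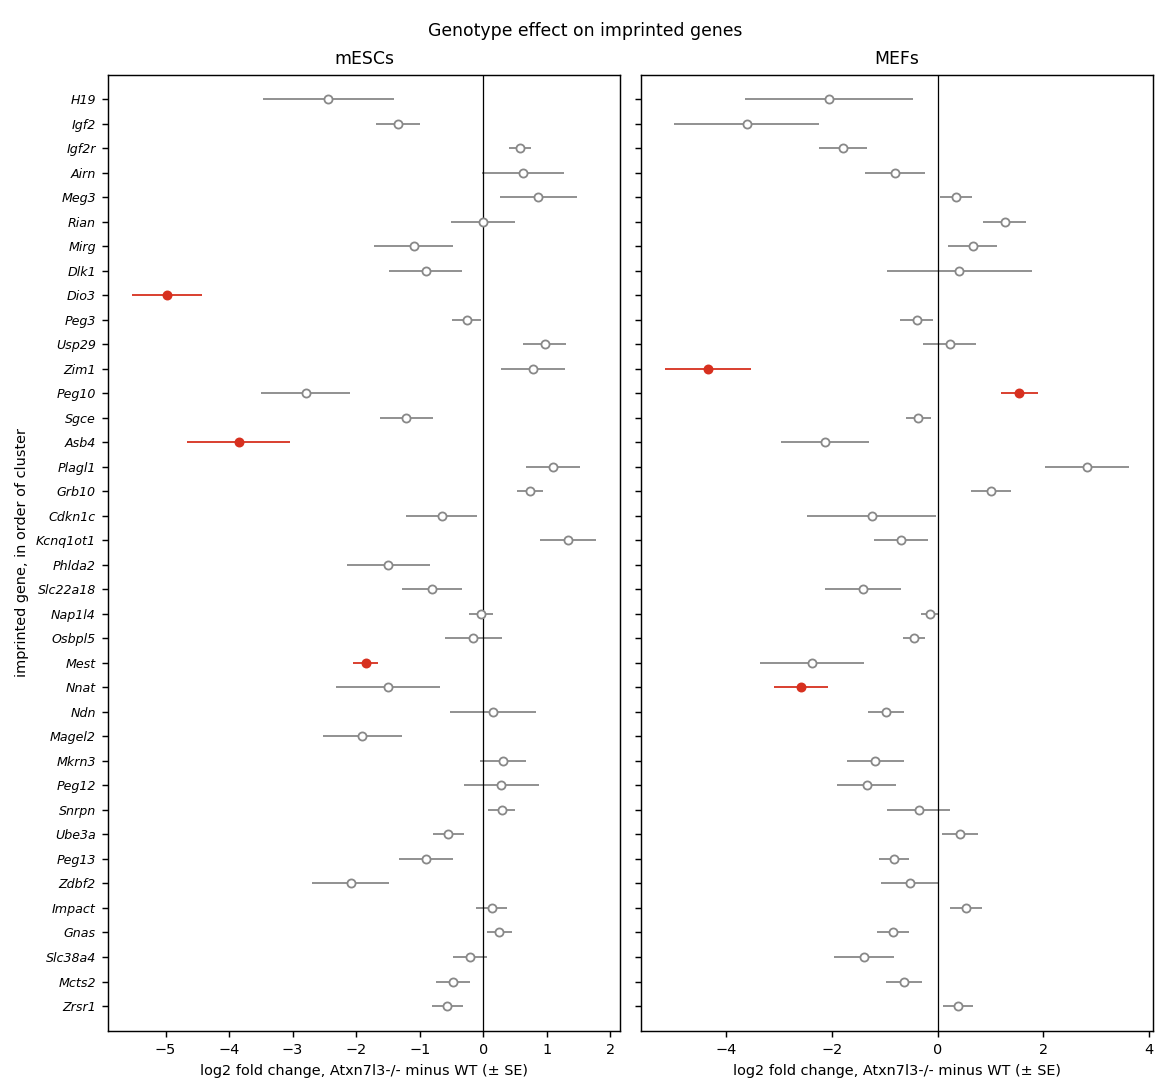
Log2 fold change (± SE, edgeR) of each imprinted gene tested, in order of cluster, in mESCs (38 genes, left) and MEFs (35 genes, right), with genes at an adjusted p of 0.05 or less filled in red. Most genes lie left of 0 in each cell type, 24 in each, and most bars are wide.

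Both cell types could be set side by side for 35 genes tested in each. The log2 fold change was below 0 in both for 15 genes (22.0% of the 14297 genes tested in both), above 0 in both for 5 (22.6%) and of opposite sign for 15 (55.4%). The WT and Atxn7l3-/- libraries did not overlap in either cell type for 6 of the 35, a share near the 20.6% of all genes. Igf2 and Peg13 were lower in both, Grb10 was higher in both, and Igf2r, Gnas and Peg10 lay on opposite sides.

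A test of the difference between the genotype effects (all 11 libraries in 1 fit) called 3 of 38 imprinted genes, where 11.4% of all 19326 genes tested were called. Peg10 was lower in Atxn7l3-/- mESCs and higher in the MEFs labelled Atxn7l3-/-, with a difference of the log2 fold changes of 4.39 ± 0.87 (SE, MEFs minus mESCs, adjusted p = 0.0152). Zim1 differed by −5.06 ± 1.05 (adjusted p = 0.0178), with the loss only in MEFs passing its own test. Igf2r differed by −2.30 ± 0.54 (adjusted p = 0.0257) and passed in neither cell type alone without the block, while in MEFs it passed with it, as given above. Over the 17 alternatives run the difference ran from 3.49 to 4.95 for Peg10, from −5.49 to −3.79 for Zim1 and from −2.77 to −1.95 for Igf2r. Without WT mESC library 1, which leaves 1 library in that group, edgeR called 0 of them (5 at an unadjusted p under 0.05), without WT mESC library 2 it called Peg10 alone, and without MEF library 3 labelled Atxn7l3-/- it called 6. With the replicate block within each cell type it called 6 (7.15% of all genes tested).

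The WT cells of both types were compared next. In WT MEFs against WT mESCs, with all libraries scaled together, 16 of 38 imprinted genes were higher (26.8% of all genes tested) and 8 were lower (27.1% of all genes tested), while 14 were not called. Igf2 stood out, at 2415 ± 2540 CPM (SD, n = 3) in MEFs and 15.7 ± 2.22 CPM (SD, n = 2) in mESCs (log2 fold change 7.26 ± 1.58 SE, adjusted p = 0.00309). The other genes higher in MEFs were Igf2r, Grb10, Cdkn1c, Dlk1, Mest, Gnas, Zim1, Airn, Rian, Sgce, Asb4, Osbpl5, Nnat, Ndn and Peg13. The lower group held Dio3, Peg10, Phlda2, Snrpn, Zdbf2, Slc38a4, Mcts2 and Zrsr1. H19 did not pass (log2 fold change 1.97 ± 1.72, adjusted p = 0.354). Cell type, derivation and culture medium cannot be told apart here.

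**Figure D3:**
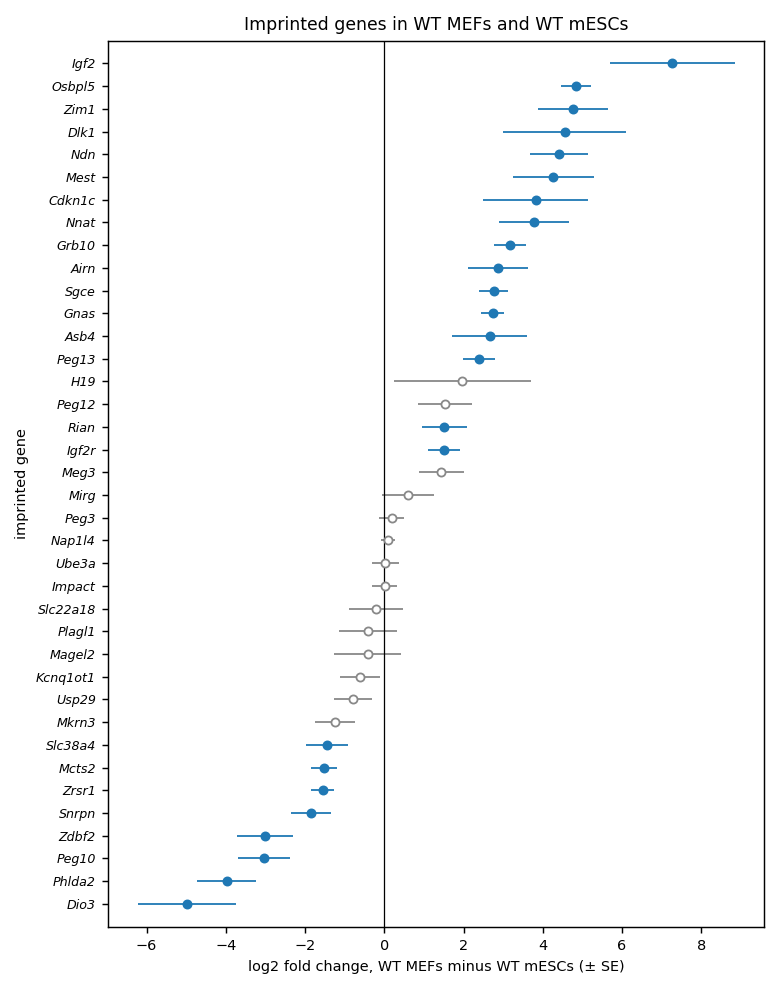
Log2 fold change (± SE, edgeR) of 38 imprinted genes in WT MEFs against WT mESCs, sorted by size, with genes at an adjusted p of 0.05 or less filled in blue. Igf2 at 7.26 is the highest point, and Dio3 at −4.97 the lowest.

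Levels between genes were compared only per length, in the reads per kb of the deposited tables, which are scaled by DESeq2 size factors and by each gene's median transcript. By the rule of a median above 10 such reads, 35 of 39 imprinted genes were expressed in mESCs (51.6% of all genes listed) and 34 of 39 in MEFs (51.2%). In WT mESCs the highest means were H19 (36267), Igf2r (17291), Plagl1 (14047), Nap1l4 (10944) and Peg10 (8207). In WT MEFs they were H19 (124840), Igf2 (94654), Mest (86575), Igf2r (43471) and Grb10 (40160). The order among the first 3 in MEFs lies within the spread of H19 and Igf2 between libraries. The median transcript is short for some of these genes (532 bases for Igf2r and 452 for Plagl1), which raises their level per kb.

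The spread between libraries of 1 group was measured beside the genotype effect. The SD of log2 CPM within a group, pooled over both genotypes, had a median of 0.501 over the 38 imprinted genes in mESCs against 0.365 over all genes tested, and of 0.641 over the 35 in MEFs against 0.441. Among genes at or above the median level the gap was smaller in mESCs, with 0.303 over 20 imprinted genes against 0.249 over all such genes. In MEFs these medians were 0.483 over 22 imprinted genes and 0.326. In mESCs 23 of 38 and in MEFs 25 of 35 were above the median gene, and 5 and 8 of them had an SD above 1, which 8.21% and 15.6% of all genes tested had. H19 was the most variable in each cell type, with an SD of 2.15 in mESCs and 2.51 in MEFs. It was followed in MEFs by Dlk1 (2.41), Cdkn1c (2.10), Igf2 (1.94) and Mest (1.72), and in mESCs by Peg10 (1.30), Nnat (1.16) and Ndn (1.10). The most even were Igf2r in mESCs (0.0727) and Nap1l4 in MEFs (0.0955). MEF library 2 was the highest of its group for 17 of 35 genes in WT and for 16 of 35 in the others, where 35.8% and 36.9% of all genes tested peaked in it. This median is a description of few libraries, and no test was made of it.

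**Figure D4:**
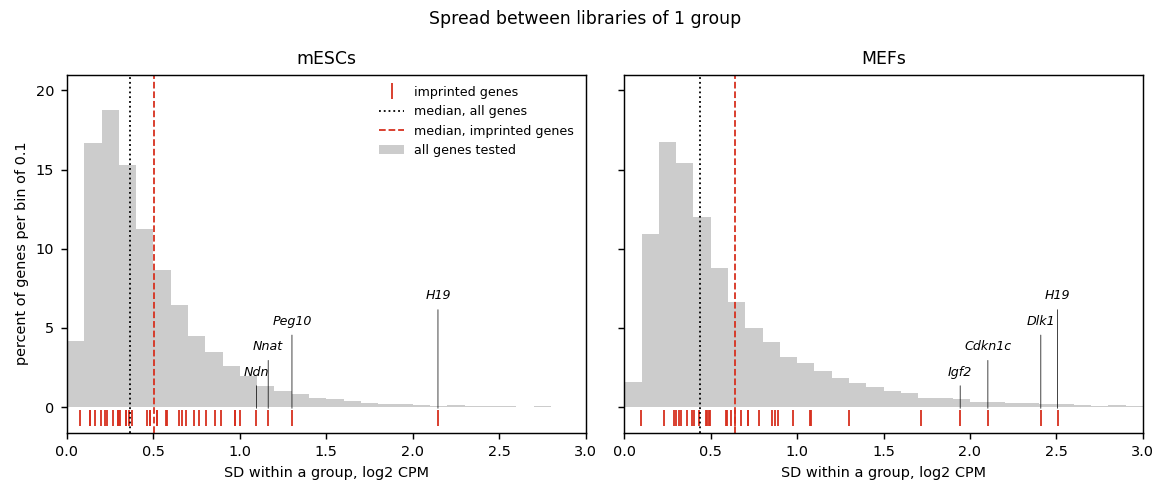
Distribution over all genes tested of the SD of log2 CPM within a group (grey bars, percent of genes per bin of 0.1) with the imprinted genes as red ticks, in mESCs (left) and MEFs (right). Lines mark the medians, 0.365 and 0.501 in mESCs and 0.441 and 0.641 in MEFs, and the 4 most variable imprinted genes are named.

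Genes of 1 cluster were compared across the 11 libraries by Pearson's r of log2 CPM, a description that includes the differences between cell types and genotypes. Among the noncoding RNAs of the maternal Dlk1-Dio3 chromosome, Meg3 and Rian had r = 0.88 over 11 libraries, 0.85 over the 5 mESC and 0.79 over the 6 MEF libraries. Meg3 and Mirg had r = 0.73 over 11 libraries and 0.83 over the MEF libraries, but 0.29 over the mESC libraries. Rian and Mirg had r = 0.90 over 11 libraries, 0.73 over the mESC and 0.92 over the MEF libraries. Dio3 had r = −0.57 with Meg3 over 11 libraries and −0.14 over the mESC libraries. Over the mESC libraries it had r = 0.79 with Dlk1, 0.73 with Mirg and 0.33 with Rian. H19 and Igf2, which are expressed from opposite chromosomes, had r = 0.68 over 11 libraries and r = 0.84 over the 6 MEF libraries. Peg10 and Sgce, both paternally expressed from a shared control region, had r = 0.05 over 11 libraries, with r = 0.85 over the 5 mESC libraries and r = −0.80 over the 6 MEF libraries.

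Sorted by the parental origin assigned to each gene beforehand, which was not measured in these cells, the calls were too few to compare the sides. In mESCs, 1 of 14 maternally expressed and 2 of 23 paternally expressed genes tested fell (3.88% of all genes tested), with median log2 fold changes of −0.35 and −0.48. In MEFs, 1 of 13 maternally expressed genes tested fell and of 21 paternally expressed genes 1 rose and 1 fell, with medians of −0.44 and −0.64. Of all genes tested in MEFs, 5.01% rose and 4.39% fell.

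Genes linked to DNA methylation or to imprints, which include genes that lay down or remove methylation, were looked at as a list of 18. In Atxn7l3-/- mESCs, 3 of the 18 fell (3.88% of all genes tested) and 0 rose (3.08%) by edgeR, with a median log2 fold change of −0.48. They were Trim28 (1886 ± 297 CPM in WT, n = 2, and 873 ± 37.8 CPM in Atxn7l3-/-, n = 3, SD, log2 fold change −1.11, edgeR adjusted p = 0.0287), the chromatin remodeller Hells (−1.14, edgeR adjusted p = 0.0341) and Ctcf, the factor that insulates Igf2 from its enhancers on the maternal chromosome (−0.79, edgeR adjusted p = 0.0480). Zfp57 was at 659 and 586 CPM in WT and at 442, 425 and 400 CPM in Atxn7l3-/- mESCs, with no call (adjusted p = 0.0921). In MEFs, 2 of 16 tested rose (5.01% of all genes tested) and 0 fell (4.39%). Zfp57 was at 29.4, 21.8 and 31.5 CPM in WT MEFs and at 82.0, 94.5 and 73.0 CPM in the others (log2 fold change 1.59, adjusted p = 0.0150), and Hells rose as well (log2 fold change 1.20, adjusted p = 0.0351, but 0.0508 with the block).

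A further list of 33 imprinted genes outside the set had 25 tested in mESCs, of which 1 rose (Copg2, the partner that overlaps Mest on the other strand) and 2 fell (Th and Slc22a3). Of all genes tested there, 3.08% rose and 3.88% fell. Slc22a3, a cation transporter of the Igf2r cluster, had 114 and 60 counts in WT mESCs and 2, 1 and 0 counts in Atxn7l3-/- mESCs. In MEFs 22 were tested, 3 rose (Ddc, Pon3 and Tspan32) and 1 fell (Rasgrf1), where 5.01% of all genes tested rose and 4.39% fell. Ddc, the neighbour of Grb10, was at 0.638, 3.99 and 1.55 CPM in WT MEFs and at 179, 214 and 94.6 CPM in the MEFs labelled Atxn7l3-/-, and the groups did not overlap (log2 fold change 6.31, adjusted p = 0.0119).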

How the data were processed

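RNA-seq libraries were made from polyadenylated RNA with a stranded kit. Per the submitters' processing notes the authors used bcl2fastq 2.17.1.14, cutadapt 1.10, STAR 2.5.3a on mm10, HTSeq 0.6.1p1 and DESeq2 1.16.1. The strand setting and the annotation of the counting are not given in the sources used here, so that antisense pairs (Airn with Igf2r, Mest with Copg2) may share reads. The deposited raw counts per gene and library were used for all tests. The signal columns, counts that the authors scaled by DESeq2 size factors and by median transcript length in kb, served only for levels between genes. The authors' fold changes and p-values were not used. A further WT mESC dataset, which the authors excluded after a principal component analysis, was not analysed here.

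Counts were tested with edgeR 4.0.16 in R 4.3.3 (TMM, filterByExpr, quasi-likelihood test, Benjamini-Hochberg over all genes tested, called at an adjusted p of 0.05 or less), separately in mESCs and in MEFs, and in 1 fit of all 11 libraries for WT MEFs against WT mESCs and for the difference of the genotype effects. Every adjusted p is from this test, except those given with the replicate block and the ranges over the alternatives. DESeq2 1.42.0 was an alternative, beside other scalings, filters and designs and each library left out. The SE of a log2 fold change was computed as its size divided by the square root of the test's F statistic. SD were taken on log2 CPM with a prior count of 2. The p-values measure only the spread between these few libraries. Intervals and count floors cover counting error only. On simulated counts, 94% and 99% of genes changed by 2 and 3 log2 units were recovered for mESCs (17800 genes, 10 false calls). For MEFs 99% and 98% were recovered (15958 genes, 8 false calls). The simulation gave every gene the same dispersion. In the data the spread differed between genes, with H19 at an SD of 2.15 in mESCs and 2.51 in MEFs. The recovered shares therefore do not apply to genes with a wide spread.

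The genes, the lists and the markers were chosen with earlier results of these data known. Values by library were given for genes called in a cell type or for the difference, for the 5 with the widest range within a group and the 5 highest per kb in each cell type, and for those without overlap in both. Cluster neighbours and other genes named beyond that were chosen after their values were seen. Same-numbered WT and Atxn7l3-/- MEF libraries deviated together (r = 0.47, 0.16 and 0.24 over genes), the sole ground for treating the MEFs as paired.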

Additional observations from a re-analysis of the deposited data

Results flagged for a closer look

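For 3 of 38 imprinted genes tested the genotype effect differed between the cell types by the interaction term of edgeR's test. Of all 19326 genes tested, 11.4% were called. The difference of the log2 fold changes (MEFs minus mESCs) was 4.39 for Peg10 (adjusted p = 0.0152), called under 16 of 17 alternatives. It was −5.06 for Zim1 (adjusted p = 0.0178), called under 15 of 17, and −2.30 for Igf2r (adjusted p = 0.0257), called under 12 of 17.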

How the results depend on the processing

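In mESCs 3 imprinted genes were called. There were 10 with no filter on low counts, 11 with DESeq2, 9 with the replicate block, 1 in 1 fit of all 11 libraries, and 14 with both Atxn7l3-/- libraries of low Y-linked counts left out, an alternative chosen after seeing the data that leaves 1 Atxn7l3-/- library and takes the spread from WT alone. Leaving out each library in turn gave 0 to 8. In MEFs 3 were called, against 5 with no filter, 10 with DESeq2, 8 with the replicate block, 8 in 1 fit of all 11 libraries and 8 with a GC correction and the block, the GC correction being added after seeing the data. With the GC correction alone 2 were called, Zim1 and Meg3, and Nnat and Peg10 were not. Leaving out each library gave 0 to 3. The difference of the genotype effects, 3 genes, had 5 with DESeq2, 6 with the replicate block and 0 to 6 without each library. Within each cell type, calls over all genes also rose with the block and with DESeq2. The main fit called 1238 of 17800 genes in mESCs and 1501 of 15958 in MEFs, against 1435 and 2232 with the replicate block. DESeq2 called 9.48% lower and 9.77% higher in mESCs, and 13.9% lower and 10.8% higher in MEFs. For the other alternatives within a cell type, each library left out included, no share over all genes is given. The cause of these shifts was not tested. WT MEFs against WT mESCs (24 genes) stayed within 1.5 times under every alternative run, with 17 to 26 without each library.

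Signs turned only for genes that were not called. With both libraries of low Y-linked counts left out, the log2 fold change in mESCs was 0.0081 for Cdkn1c, 0.038 for Nap1l4 and −1.49 for Ndn. Without each library, Nap1l4 ran from −0.082 to 0.056 and Ndn from −0.56 to 0.73 in mESCs, and Dlk1 from −1.55 to 2.14 and H19 from −4.29 to 0.72 in MEFs. With the replicate block Dlk1 was −0.11 in MEFs. Same-numbered mESC libraries did not deviate together (r = 0.0078 and −0.17), so that the block there rests on the number alone. At 3 counts, the floor of a library, genes such as Rtl1 could not be tested.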
